A study of Mus musculus with 46 samples.

Results

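Hedgehog signalling passes a secreted ligand to a membrane receptor and from there to a small family of transcription factors. The ligands SHH, IHH and DHH bind PTCH1, which without ligand holds the membrane protein SMO inactive, and released SMO lets the zinc finger factors GLI1, GLI2 and GLI3 change the transcription of target genes. GLI2 acts mainly as the activator and GLI3 mainly as the repressor, while Gli1, Ptch1 and Hhip are themselves textbook targets, so that PTCH1 and the ligand-trapping protein HHIP damp the signal that induced them. In the limb the pathway patterns the digits through Shh, orders growth plate cartilage through Ihh and acts in peripheral nerve through Dhh.

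The 9 genes described here are Shh, Ihh, Dhh, Ptch1, Hhip, Smo, Gli1, Gli2 and Gli3, chosen by name as the ligands, receptors, transcription factors and readout genes of the pathway, out of 56980 genes in one count table and 56941 in the other. On GRCm38, by GENCODE M21, Shh lies at chr5:28456815-28467256, Ihh at chr1:74945315-74951672 and Dhh at chr15:98891152-98898540. Ptch1 lies at chr13:63508328-63573598 and Hhip at chr8:79965851-80058006. Gli1 lies at chr10:127329882-127341974 and Gli2 at chr1:118834132-119053619, all on the minus strand, while Smo (chr6:29735503-29761365) and Gli3 (chr13:15463235-15730026) are on the plus strand. Their RNA was counted in 46 mouse synovial sarcoma tumours, 1 library per tumour, to ask how disruption of different BAF-family chromatin remodelling complexes affects the tumours. Mice of the hSS2 background express the human fusion SS18::SSX2, and mice of the hSS1 background express SS18::SSX1 from Rosa26, in both cases after TATCre protein was injected into the limb of young mice. All tumours, the controls included, therefore carry the fusion and were exposed to Cre. In hSS2 there were 13 control tumours and 8 each of Pbrm1-fl, Arid1a-fl and Arid1b-fl, and in hSS1 there were 5 control and 4 Pbrm1-fl tumours, the floxed groups being homozygous for Pbrm1-fl/fl, Arid1a-fl/fl or Arid1b-fl/fl, which Cre recombination disrupts. PBRM1 belongs to the PBAF form of the remodeller, while canonical BAF carries either ARID1A or ARID1B. Age at harvest varied and is not in the labels. Whole tumour tissue was extracted, so host cells without recombination contribute RNA to every library.

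Library totals ran from 10137668 to 21294657 counts, and levels are given as CPM, counts per 1000000 counts of the library. Pbrm1 was lower in all 8 hSS2 Pbrm1-fl tumours (94.1 to 134 CPM) than in any hSS2 control tumour (180 to 324 CPM), with a log2 fold change of −1.27 ± 0.09 (SE) and an adjusted p of 4.2e-12. Arid1a was lower in Arid1a-fl tumours (239.4 to 287 against 254 to 593 CPM, log2 fold change −0.95 ± 0.13, adjusted p = 7.01e-05), but the library labelled hSS2 control replicate 9 had the lowest control value, 254 CPM, inside the floxed range. Arid1b in Arid1b-fl tumours (110 to 348 against 230 to 678 CPM, log2 fold change −0.80, adjusted p = 0.145) and Pbrm1 in hSS1 Pbrm1-fl tumours (98.2 to 253 against 278 to 356 CPM, log2 fold change −0.75, adjusted p = 0.193) did not pass the threshold. These and all later adjusted p-values come from edgeR's two-sided quasi-likelihood test with Benjamini-Hochberg adjustment over all genes tested, with a threshold of 0.05. DESeq2, the alternative tool, did call Arid1b in Arid1b-fl tumours, where 5 of 8 lay below every control. It did not call Pbrm1 in hSS1. Mouse numbers, a possible batch, ran with the floxed gene, since all hSS2 Pbrm1-fl mice were numbered 2000 and over and all Arid1a-fl mice under 1000, while hSS2 controls held 4 and 5 mice of those ranges.

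The receptor, the transducer and the GLI factors were all present in every tumour, whereas the ligands were scarce. In whole tumour libraries, fewer cells of a type and less RNA per cell cannot be told apart. Divided by the summed exon length of each gene, the median levels across the 37 hSS2 tumours were 33.7 CPM per kb for Gli1, 31.2 for Smo, 29.8 for Ptch1, 23.0 for Hhip, 22.6 for Gli2 and 20.02 for Gli3. The ranges of these 6 genes over tumours overlapped, so their order among themselves lay within the spread. Shh stood apart below them at a median of 2.14 CPM per kb, its highest tumour reaching 4.51 against a lowest value of 7.96 for Hhip. Ihh and Dhh were lower again, at medians of 0.161 and 0.156 CPM per kb, and their ranges overlapped each other and that of Shh. In the 9 hSS1 tumours the medians ran from 37.6 CPM per kb for Smo through 37.2 for Gli1, 35.5 for Ptch1, 25.04 for Gli2, 18.98 for Gli3 and 12.9 for Hhip to 2.38 for Shh, with Ihh and Dhh at 0.0697 and 0.0619.

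**Figure D1:**
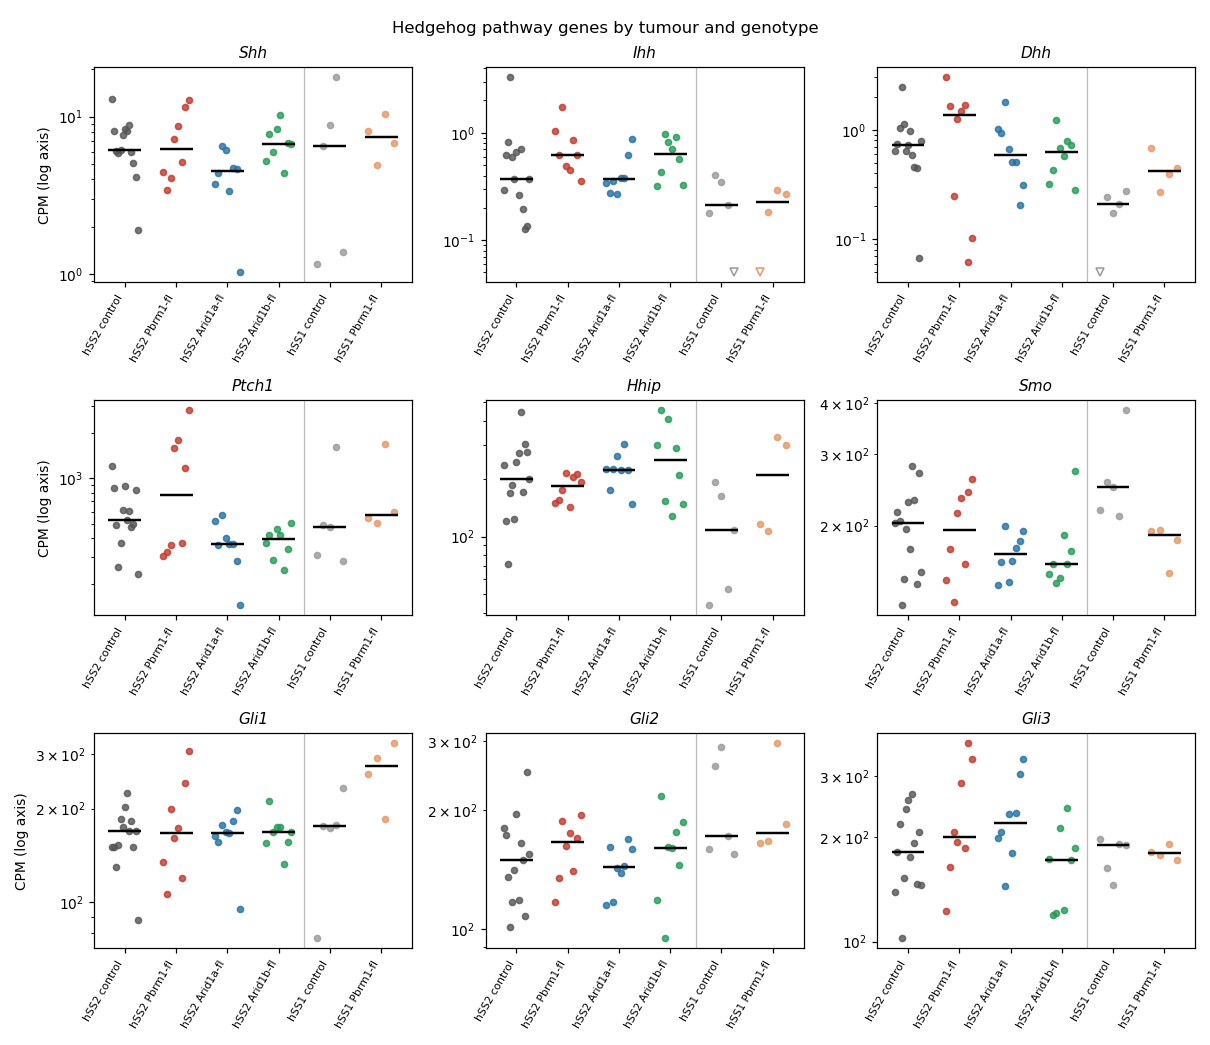
Level of each hedgehog gene in each tumour, in CPM on a log axis, by genotype group (points are tumours, bars are group medians, open triangles at the lower edge are libraries with 0 counts). The 4 high Ptch1 values of hSS2 Pbrm1-fl, from 1167 to 2821 CPM, lie apart from the other 4, from 305 to 370 CPM, while Gli1, Gli2 and Smo overlap between hSS2 groups.

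Shh, the ligand of limb patterning, had 13 to 251 counts per library. In hSS2 control tumours it ranged from 1.90 to 12.8 CPM with a median of 6.14, in Pbrm1-fl from 3.42 to 12.7 with a median of 6.20, in Arid1b-fl from 4.40 to 10.2 with a median of 6.74, and in Arid1a-fl from 1.03 to 6.52 with a median of 4.51. The groups overlapped, and 7 of 8 Arid1a-fl tumours lay below the control median. In hSS1 the control tumours had 1.16, 6.52, 8.78, 17.8 and 1.38 CPM, and the Pbrm1-fl tumours had 8.09, 4.90, 10.5 and 6.78 CPM. The hSS1 controls thus held both the highest Shh value of that background and the 2 lowest. Shh shares exon bases with the antisense transcripts 9530036O11Rik (446 bases, median 2.23 CPM in hSS2) and Gm26894 (361 bases), and since the strand setting of the counting is not given in the sources used here, their reads cannot be told apart with certainty.

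Ihh, the ligand of growth plate cartilage, had 2 to 58 counts per hSS2 library and 0 to 5 in hSS1. Its hSS2 medians were 0.370 CPM in control, 0.626 in Pbrm1-fl, 0.368 in Arid1a-fl and 0.639 in Arid1b-fl tumours, and the groups overlapped, the control group reaching 3.29 CPM in 1 tumour. Dhh, the ligand made by Schwann cells, had 1 to 43 counts in hSS2 and 0 to 7 in hSS1. Its hSS2 medians were 0.720 CPM in control, 1.36 in Pbrm1-fl, 0.591 in Arid1a-fl and 0.631 in Arid1b-fl tumours. Within Pbrm1-fl it split widely, with 0.248, 0.0625 and 0.102 CPM in replicates 3, 7 and 8 and 1.25 to 3.01 CPM in the other 5. Neither Ihh nor Dhh passed the filter on low counts in hSS1, where a count of 0 allows up to 3 counts, and Dhh shares 546 exon bases with Rhebl1 on the same strand, so its low counts are uncertain.

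Ptch1, the receptor and a direct GLI target, varied most among the well-expressed members, with a highest hSS2 level 19.7 times the lowest, against 6.30 times for Hhip, 3.66 for Gli3, 3.496 for Gli1, 2.65 for Gli2 and 2.21 for Smo. In hSS2 control tumours it ranged from 230 to 1210 CPM with a median of 529.9, in Arid1a-fl from 143 to 572 with a median of 365, and in Arid1b-fl from 244 to 503 with a median of 395. The hSS2 Pbrm1-fl tumours had 305, 323, 360.3, 1578, 1791, 370.4, 1167 and 2821 CPM in replicates 1 to 8. Replicates 4, 5, 7 and 8 thus lay above every Arid1a-fl and Arid1b-fl tumour, and 3 of them lay above every control tumour, while the other 4 lay below the control median. The standard deviation of log2 CPM was 1.28 in Pbrm1-fl (n = 8), 0.66 in control (n = 13), 0.61 in Arid1a-fl (n = 8) and 0.38 in Arid1b-fl (n = 8). In hSS1 the control tumours had 310.3, 489.7, 473, 1612 and 284 CPM and the Pbrm1-fl tumours had 544, 504, 1692 and 598 CPM. In each hSS1 group 1 tumour, control replicate 4 and Pbrm1-fl replicate 3, had a level far above the others of its group.

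Hhip, which binds and sequesters the ligands and is also a GLI target, ranged from 72.2 to 447 CPM in hSS2 control with a median of 198, from 142 to 215 in Pbrm1-fl with a median of 183, from 149 to 303 in Arid1a-fl with a median of 223, and from 128 to 455 in Arid1b-fl with a median of 249. It did not share the split of Ptch1, and the Pbrm1-fl tumours lay in a narrower band than the controls. In hSS1 the Hhip levels were 43.8, 192, 162, 53.5 and 108 CPM in control and 117, 107, 329.8 and 299.9 CPM in Pbrm1-fl tumours, so that 2 floxed tumours exceeded all controls.

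The windows upstream of both GLI target receptors are shown because GLI factors bind the letters GACCACCCA or close variants of them. The sequences, from RefSeq on GRCm38.p6, are the 250 bases before the annotated start, with capitals for the shorter core CCACCC or its reverse complement GGGTGG, which lies within the longer motif. The Ptch1 window is chr13:63565736-63565985 on the minus strand, before a start that lies inside the GENCODE M21 gene (chr13:63508328-63573598). The Hhip window is chr8:80058009-80058258 on the minus strand, and neither window overlaps an annotated exon.
Ptch1: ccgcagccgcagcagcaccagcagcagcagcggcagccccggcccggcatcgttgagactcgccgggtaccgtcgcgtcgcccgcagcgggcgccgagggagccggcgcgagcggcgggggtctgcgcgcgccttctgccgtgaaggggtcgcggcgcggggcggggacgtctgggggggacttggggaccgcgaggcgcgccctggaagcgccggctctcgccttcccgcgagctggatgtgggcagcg
Hhip: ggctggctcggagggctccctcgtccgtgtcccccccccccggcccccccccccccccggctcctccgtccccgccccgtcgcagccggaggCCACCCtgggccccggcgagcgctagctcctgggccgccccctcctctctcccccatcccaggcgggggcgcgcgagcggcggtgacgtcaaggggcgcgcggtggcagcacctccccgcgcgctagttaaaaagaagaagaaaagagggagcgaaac
The Hhip window held the core at 1 place and the Ptch1 window did not hold it. RefSeq windows were at hand for 7 of the 9 members, all but Shh and Gli1. The full motif, on either strand, was in 0 of these 7 and in 0.225% of all 32851 promoter windows of the same length. The core was in 6 of the 7, that is at 2 places in those of Ihh and Gli2 and at 1 place in those of Dhh, Smo, Gli3 and Hhip, and in 28.1% of all windows. The share of G and C in the 7 ran from 59.6% (Dhh) to 78.4% (Ptch1), and the windows compared were not matched for it. A match to a short motif is a description of the letters and not a site of binding.

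Smo, the transducer, had medians of 203 CPM in hSS2 control, 195 in Pbrm1-fl, 170.1 in Arid1a-fl and 161 in Arid1b-fl tumours, over a whole range of 127 to 281 CPM. All 8 Arid1a-fl tumours lay below the control median but inside the control range. In hSS1 the control tumours had 219, 257, 249, 211 and 385 CPM and the Pbrm1-fl tumours had 195, 196, 153 and 184 CPM. Every floxed hSS1 tumour was thus below every control tumour of that background. Smo did not pass the adjusted threshold there, and how many of all genes separated in this way was not counted.

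Gli1, whose own transcription is a readout of the pathway, had nearly equal hSS2 medians of 169.7 CPM in control, 167 in Pbrm1-fl, 167 in Arid1a-fl and 169 in Arid1b-fl tumours. Its range was widest in Pbrm1-fl, from 106 to 307 CPM. The hSS1 levels were 76.6, 176, 173, 177 and 234 CPM in control and 259, 290.01, 186 and 325 CPM in Pbrm1-fl tumours, so that 3 of 4 floxed tumours exceeded all controls. Gli2 ranged from 94.6 to 250.5 CPM in hSS2, with medians of 149 CPM in control, 166 in Pbrm1-fl, 144 in Arid1a-fl and 161 in Arid1b-fl tumours. In hSS1 it had 160.0, 259.8, 289, 172 and 155 CPM in control and 166, 167, 296 and 184 CPM in Pbrm1-fl tumours, again with overlap. Gli3 ranged from 102 to 374 CPM in hSS2, with medians of 181 CPM in control, 200.2 in Pbrm1-fl, 220.5 in Arid1a-fl and 173 in Arid1b-fl tumours, and from 146 to 197 CPM in hSS1. The highest Gli3 levels, 374 and 337 CPM, were those of Pbrm1-fl replicates 7 and 8, which also had the 2 highest Shh and Gli1 levels of their group.

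In hSS2 Pbrm1-fl against control tumours 0 of 9 members passed the threshold in edgeR and 0 in DESeq2, where 7.35% and 10.8% of all genes tested did. At an unadjusted p under 0.05, where 22.4% of all genes lay, there was 1, Ptch1, with a log2 fold change of 0.82 ± 0.33 (SE, 95% interval 0.15 to 1.49, adjusted p = 0.127). The intervals of Gli1 (−0.20 to 0.42), Gli2 (−0.21 to 0.31) and Smo (−0.29 to 0.22) were the narrowest, so that differences of 1 on the log2 scale lay outside them. Without Pbrm1-fl replicate 8 the Ptch1 value was 0.44 (adjusted p = 0.464). Against control mice numbered 2000 and over it was 0.60 (adjusted p = 0.651), and with the skeletal muscle score as a covariate it was 0.50 (adjusted p = 0.388). The median log2 fold change of the 9 members was 0.11, against −0.0042 over all genes.

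Among hSS2 Arid1a-fl tumours, again, 0 of 9 members differed from control by edgeR and 0 by DESeq2, beside 3.17% and 8.44% of all genes. Of the 2 below an unadjusted p of 0.05, beside 23% of all genes, Shh had a log2 fold change of −0.71 ± 0.28 (95% interval −1.27 to −0.15, adjusted p = 0.124) and Ptch1 one of −0.72 ± 0.34 (95% interval −1.42 to −0.02, adjusted p = 0.203). The downstream factors stayed close to 0, with −0.05 for Gli1, −0.13 for Gli2 and 0.27 for Gli3, and the members' median was −0.20 against −0.04 over all genes. In Arid1b-fl tumours 0 of 9 passed by either tool and 0 were below an unadjusted p of 0.05, where edgeR called 0.0548% of all genes, DESeq2 called 0.0747%, and 6.22% had an unadjusted p under 0.05. Ptch1 had the largest difference there, −0.60 ± 0.34 (adjusted p = 0.801), and all 8 Arid1b-fl tumours lay below the control median.

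The comparison of hSS2 Pbrm1-fl with Arid1a-fl tumours, which sets PBAF against canonical BAF disruption, called Ptch1 alone among the 9 members, beside 12.3% of all genes. Ptch1 was higher in Pbrm1-fl by 1.54 ± 0.38 on the log2 scale (95% interval 0.76 to 2.31, adjusted p = 0.00678), and DESeq2, which called 16.1% of all genes, also called it. It remained called when each of the 16 tumours was left out in turn, with values from 1.16 to 1.66. Yet 4 of 8 Pbrm1-fl tumours lay inside the Arid1a-fl range, and when each group was first set against control tumours of its own mouse number range the difference was 1.14 with an adjusted p of 0.324, past the threshold no longer. Ptch1 in control tumours had medians of 493 CPM for mice under 1000 and 679 CPM for mice numbered 2000 and over. Shh was higher by 0.75 ± 0.30 in the same comparison (adjusted p = 0.0987), while Gli1 (0.16), Gli2 (0.18), Gli3 (0.04) and Hhip (−0.28) had intervals that included 0. Across all 4 hSS2 groups 1 member, Ptch1, passed the test for any difference (adjusted p = 0.0117), as did 11.8% of all genes, and this call was lost without Pbrm1-fl replicate 8 (adjusted p = 0.0549) and kept without the library labelled control replicate 9 (adjusted p = 0.0154).

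**Figure D2:**
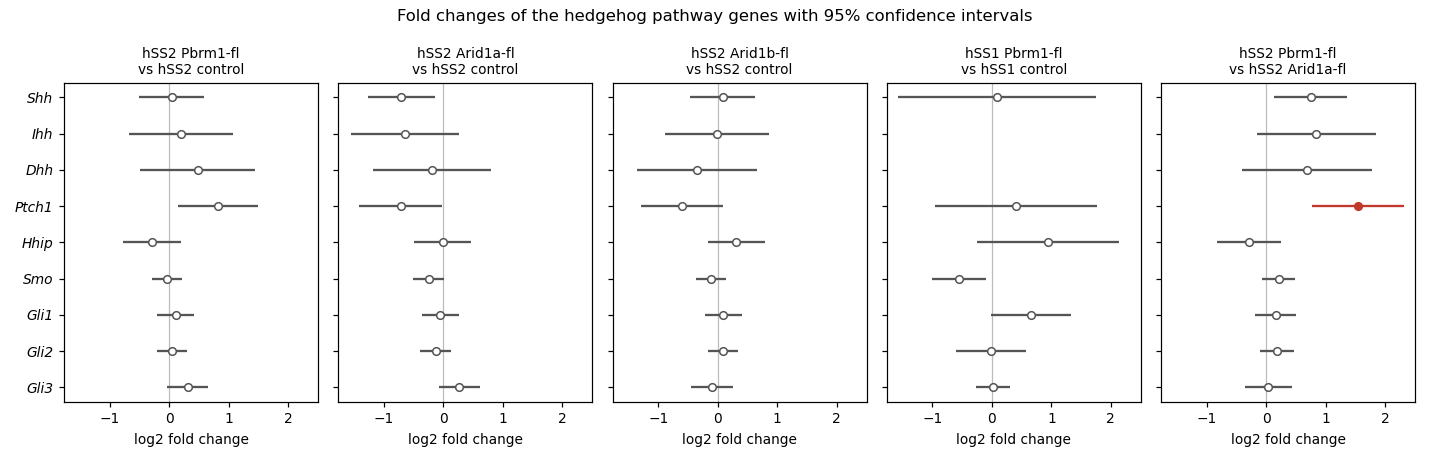
Log2 fold change of each hedgehog gene in 5 comparisons, with 95% confidence intervals as horizontal lines (filled red points passed the adjusted threshold, open points did not, and Ihh and Dhh were not tested in hSS1). Ptch1 in Pbrm1-fl against Arid1a-fl, at 1.54, is the only filled point.

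In hSS1 Pbrm1-fl against control tumours 7 members could be tested and 0 passed by edgeR or DESeq2, where 0.00562% of all genes passed in edgeR and 6.66% in DESeq2. The 1 member below an unadjusted p of 0.05, beside 17.2% of all genes, was Smo, at −0.55 ± 0.20 (95% interval −0.999 to −0.102, adjusted p = 0.219, lower in 4 of 4 tumours). Gli1 at 0.65 ± 0.30 (adjusted p = 0.301), Hhip at 0.95 ± 0.53 (adjusted p = 0.389) and Ptch1 at 0.41 ± 0.60 (adjusted p = 0.761) had intervals that included 0. The Ptch1 value turned on 1 tumour in each group, at 1.13 without control replicate 4 and −0.21 without Pbrm1-fl replicate 3. When the hSS2 effect of Pbrm1-fl was subtracted from the hSS1 effect, 0 of 9 members differed by edgeR or DESeq2, beside 2.86% and 5.5% of all genes. The 2 below an unadjusted p of 0.05, beside 18.9% of all genes, were Hhip, at 1.24 ± 0.49 (adjusted p = 0.149), and Smo, at −0.52 ± 0.23 (adjusted p = 0.199). The backgrounds came as separate count tables, so levels between them were set side by side without a test. The paper reports that Pbrm1 RNA fell less in floxed hSS1 than in floxed hSS2 tumours. It proposes that hSS1 favoured cells with a single recombined allele, which was not tested here. The Pbrm1-fl groups of the backgrounds may therefore not be equally disrupted.

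Across tumours of the same group, the levels of Shh and Ptch1 were correlated. After removal of group means, Pearson's r across the 37 hSS2 tumours was 0.75 and Spearman's rho 0.70, with permutation p-values of 1e-05, the smallest that 100000 draws can give, and 4e-05 (adjusted over 36 pairs 0.00018 and 0.00072). Within mouse number ranges r was 0.77 under 1000, 0.69 from 1000 to under 2000 and 0.89 at 2000 and over, and rho was 0.40 (permutation p = 0.211, n = 13), 0.63 and 0.89. The range under 1000 held Arid1a-fl replicate 8, the tumour with the lowest Shh and Ptch1 in hSS2. It was 0.71 without the 2 tumours farthest from the median of Shh and 0.73 without the Pbrm1-fl tumours (n = 29, rho 0.53). In the 9 hSS1 tumours r was 0.80 and rho 0.92, with exact permutation p-values of 0.00417 and 0.00903, neither below 0.05 after adjustment over 21 pairs (0.0875 and 0.19). Without the 2 farthest hSS1 tumours r was 0.89 (n = 7). This pair was picked out after the values were seen, and the level of Shh rests on few counts.

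**Figure D3:**
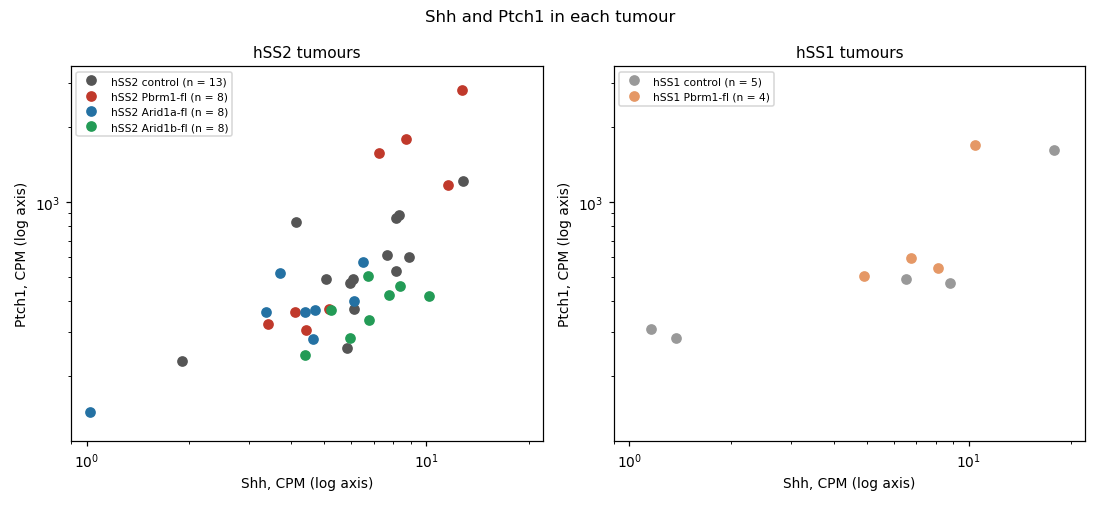
Ptch1 against Shh in each tumour, both in CPM on log axes, with hSS2 tumours on the left and hSS1 tumours on the right, coloured by group. The tumours with the lowest Shh, at 1.03 CPM in hSS2 and 1.16 CPM in hSS1, have low Ptch1, at 143 and 310.3 CPM, and the Pbrm1-fl tumour with 12.7 CPM of Shh has the highest Ptch1, 2821 CPM.

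Gli1 followed Shh (r = 0.73, rho = 0.52, adjusted permutation p-values 0.00048 and 0.0163), with r from 0.69 to 0.87 and rho from 0.52 to 0.59 within mouse number ranges and r = 0.62 without the 2 farthest tumours. With Ptch1, its fellow target, Gli1 had r = 0.59 but rho = 0.32 (adjusted permutation p-values 0.00746 and 0.203), and r fell to 0.41 without the 2 tumours farthest from the Gli1 median, so that this relation rests in part on those tumours. With Hhip, the third target, it had r = 0.29 and rho = 0.31 (adjusted permutation p-values 0.125 and 0.144). In hSS1 the rank correlations of Gli1 were −0.03 with Shh, −0.10 with Ptch1 and 0.03 with Hhip (n = 9, exact permutation p-values from 0.834 to 0.958).

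Of all 36 pairs, 9 passed an adjusted 0.05 by both r and rho. Dhh ran against Gli2 (r = −0.70, rho = −0.66) and Gli3 (r = −0.67, rho = −0.58), with r of −0.80, −0.65 and −0.78 for Gli2 within the mouse number ranges. It also ran against Smo (r = −0.52). These Dhh values rest on 1 to 43 counts. Ihh ran against Ptch1 (r = −0.54), with r of −0.62, −0.29 and −0.77 within ranges. Smo ran with Ptch1 (r = 0.59, but 0.17 in mice under 1000), with Gli2 (r = 0.48) and with Gli3 (r = 0.48, but 0.15 in mice from 1000 to under 2000). Depth and the makeup of the tissue are shared by all genes of a library, and their part in these correlations was not tested.

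**Figure D4:**
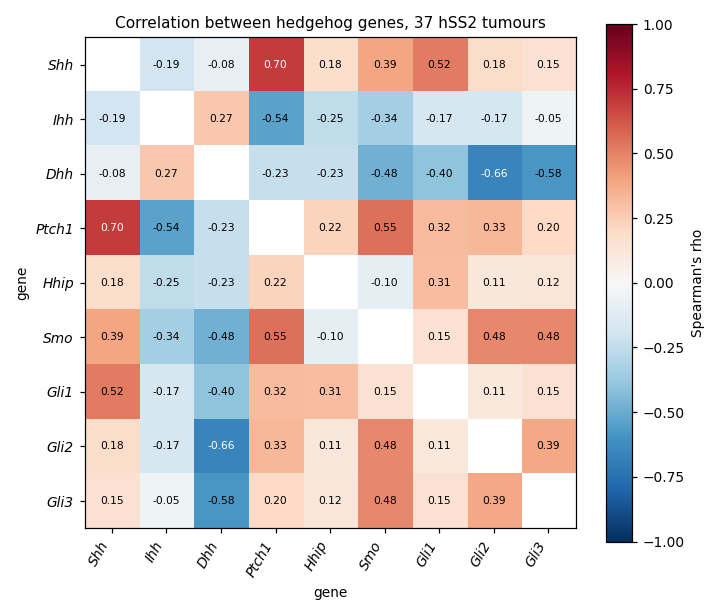
Spearman's rho for each pair of hedgehog genes across 37 hSS2 tumours after group means were removed (red is positive, blue is negative). The strongest positive value is 0.70 for Shh with Ptch1, and the strongest negative value is −0.66 for Dhh with Gli2.

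The 6 listed synovial sarcoma markers summed to 231 to 583 CPM in hSS2 and 275 to 731 CPM in hSS1. The hSS2 medians were 353 CPM in control, 271 in Pbrm1-fl, 349 in Arid1a-fl and 355 in Arid1b-fl. Krt19 alone had a median below 1 CPM, in Arid1a-fl. DESeq2 called 2 of the 6 in Pbrm1-fl against control, Bcl2 and Krt18, beside 10.8% of all genes. Summed over 9 skeletal muscle markers, levels ran from 22.8 to 81312 CPM in hSS2 control, 16.6 to 32983 in Pbrm1-fl, 12.8 to 22509 in Arid1a-fl and 18.4 to 76349 in Arid1b-fl. Ptch1 and the muscle score had r = −0.41 (rho −0.38, adjusted permutation p-values over 9 pairs 0.0548 and 0.0532), and with the score as a covariate Ptch1 in Pbrm1-fl against Arid1a-fl tumours was still called, at 1.40 (adjusted p = 0.007). Scores averaged the listed markers that passed the filter on low counts. These were 5 of 7 for Schwann cells and 4 of 7 each for cartilage and keratinocytes. Dhh followed the Schwann cell score (r = 0.69, rho = 0.57, adjusted permutation p-values 0.00063 and 0.00711), with r from 0.57 to 0.75 within ranges. Of the 7 listed Schwann cell markers, Sox10 and S100b had medians below 1 CPM in the floxed groups. The sum of all 7 ran from 20.1 to 103 CPM in hSS2 control and 21.7 to 99.5 CPM in Pbrm1-fl. Ihh did not follow the cartilage score (r = 0.22, rho = 0.07, adjusted permutation p-values 0.265 and 0.76). Of the 7 listed cartilage markers, Acan, Col9a1, Matn3 and Col10a1 had medians below 1 CPM in every group. Ihh itself rests on few counts, so these values could miss a relation. Shh ran weakly against the keratinocyte score (r = −0.38, rho = −0.40, adjusted permutation p-values 0.0548 and 0.0532). The 7 listed keratinocyte markers summed to at most 23.1 CPM in hSS2. Macrophage markers summed to 39.6 to 847 CPM, endothelial markers to 75.2 to 491 CPM and adipocyte markers to 0 to 90.5 CPM in hSS2. In edgeR 1 gene of all these marker lists was called in hSS2 comparisons, the cartilage gene Matn1, and 0 in hSS1. Apart from the muscle score used as a covariate, the part of these cells in the results was not tested.

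By the likeness measure, rho across the 37 hSS2 tumours, the genes most like Gli1 were Fbxo2 (0.70), Spsb2 (0.70), Ccdc28b (0.69), Mark2 (0.69) and Pank4 (0.67). In hSS1 their rho with Gli1 was −0.33, 0.23, 0.82, −0.62 and −0.22, so that the order did not carry over. For Ptch1 the list, added after the values were seen, was Suclg2 (0.89), A930032L01Rik (0.88), Gm30655 (0.86), Hap1 (0.83) and Ipo8 (0.83), with 0.20, 0.78, 0.92, 0.70 and 0.12 in hSS1. Of these, 2 are neighbours of Ptch1. A930032L01Rik lies within Ptch1 on the same strand, at chr13:63567098-63568054, shares no exon base with it and reached 7.36 CPM. Gm30655, a lincRNA on the opposite strand at chr13:63575051-63582562, starts 1453 bases beyond the Ptch1 gene and reached 15.3 CPM. The nearest protein-coding genes tested on either side, Fancc at 11050 bases and Ercc6l2 at 241642 bases, had rho of 0.49 and 0.71 in hSS2 and −0.17 and 0.03 in hSS1, and 2010111I01Rik, at 182232 bases, had 0.10 in hSS2 and 0.53 in hSS1.

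The other 50 pathway genes listed, from ligand release to GLI targets, were tested in every comparison. In hSS2 Pbrm1-fl against control edgeR called 7 of 50, 6 higher and 1 lower, beside 7.35% of all genes. DESeq2 called 10 of the 50, beside 10.8% of all genes. The median log2 fold change of the 50 in edgeR was 0.11, against −0.0042 over all genes. Of the co-receptors that present ligand to PTCH1, Cdon rose by 1.38 ± 0.40 on the log2 scale (adjusted p = 0.029). Cdon ranged from 161 to 1501 CPM in control with a median of 435 and from 287 to 3182 CPM in Pbrm1-fl with a median of 1522, with 4 of 8 floxed tumours above every control. The call was lost without Pbrm1-fl replicate 4 or 7 or control replicate 11 (adjusted p from 0.0518 to 0.0911). Among the genes that carry the signal to GLI, Evc, which binds SMO in the cilium, rose by 0.34 (adjusted p = 0.0273). Grk2, the kinase that acts on active SMO, rose by 0.28 (adjusted p = 0.0291) and Prkar1a, the regulatory subunit of protein kinase A, by 0.30 (adjusted p = 0.0423). Cul3, the scaffold of the ligase that degrades GLI2 and GLI3, fell by 0.30 (adjusted p = 0.0143). Of the GLI targets, Bmp4 rose by 1.20 ± 0.35 (adjusted p = 0.0287), which fell to 0.53 (adjusted p = 0.312) without Pbrm1-fl replicate 3 at 577 CPM. Evc was not called without Pbrm1-fl replicate 3 (0.24, adjusted p = 0.139) nor in 6 other such fits, Grk2 was called in 16 of 21 and Prkar1a in 5 of 21. Without the library labelled control replicate 9, Evc, Grk2, Prkar1a and Bmp4 (adjusted p = 0.0511) were not called. Against control mice numbered 2000 and over only Bmp4 of these 7 was called (2.21, adjusted p = 0.0128).

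In Pbrm1-fl against Arid1a-fl tumours edgeR called 6 of 50, 4 higher and 2 lower, beside 12.3% of all genes. DESeq2 called 9 of the 50, beside 16.1% of all genes. Foxf1, a mesenchymal forkhead factor and GLI target, was higher by 2.19 ± 0.42 (adjusted p = 0.000743). Its levels ran from 28.5 to 92.2 CPM in Pbrm1-fl and 4.51 to 24.8 CPM in Arid1a-fl, with no overlap. How many of all genes separated in this way between these groups was not counted. Foxf1 was called in all 16 fits with a tumour left out and against the controls of each range (2.94, adjusted p = 0.0246). The co-receptors Gas1 (−0.73, adjusted p = 0.00805) and Boc (−1.80, adjusted p = 0.0356) were lower in Pbrm1-fl, Boc in only 8 of 16 such fits. Without Arid1a-fl replicate 4, at 2286 CPM, Boc was at −1.43 (adjusted p = 0.103). Mgrn1, a ubiquitin ligase (0.26, adjusted p = 0.0207), and Evc2, the partner of Evc (0.30, adjusted p = 0.0412), were higher. Evc2 was called in 6 and Mgrn1 in 14 of the 16 fits. Against the controls of each range Evc2 was at −0.06, and Foxf1 alone of these 6 genes was called.

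Of the same 50 genes, 0 were called in Arid1a-fl against control (7 at an unadjusted p under 0.05, 2 by DESeq2, Foxf1 and Sufu), beside 23% and 8.44% of all genes. In Arid1b-fl against control 0 were called (1 unadjusted, 0 by DESeq2). Over all genes edgeR called 0.0548% there, 6.22% were below an unadjusted p of 0.05 and DESeq2 called 0.0747%. In hSS1 Pbrm1-fl against control 0 were called (10 unadjusted, 4 by DESeq2, Ift122, Lrp2, Mycn and Prkaca), beside 17.2% and 6.66% of all genes, and 0 in the difference of the Pbrm1-fl effect between backgrounds (9 unadjusted, 1 by DESeq2, Cdon at −2.22 ± 0.75 with an edgeR adjusted p of 0.0911), beside 18.9% and 5.5% of all genes. Foxf1 in Arid1a-fl against control had −1.27 ± 0.38 (adjusted p = 0.0527). Across the 4 hSS2 groups 4 of 50 passed the edgeR test for any difference, among them Cul3, Foxf1 and Gas1, beside 11.8% of all genes. Gas1 was called in 31 of 37 fits that left out a tumour. By DESeq2 14 of the 50 passed, beside 3731 of 20083 genes, so this count depends on the tool. None of 9 primary cilium transport genes, nor of 5 ligand release genes, was called by edgeR in any comparison, at most 3 of each being below an unadjusted p of 0.05. For the ligand release genes this was 3 of 5 in hSS2 Pbrm1-fl against control, beside 22.4% of all genes. For the cilium genes it was 3 of 9 in hSS1 Pbrm1-fl against control and in the difference between backgrounds, beside 17.2% and 18.9%. Pbrm1-fl against Arid1a-fl held 1 cilium and 0 ligand release genes, beside 26.8% of all genes. The test for any difference across the 4 hSS2 groups held 0 of each, beside 28.8%.

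**Figure D5:**
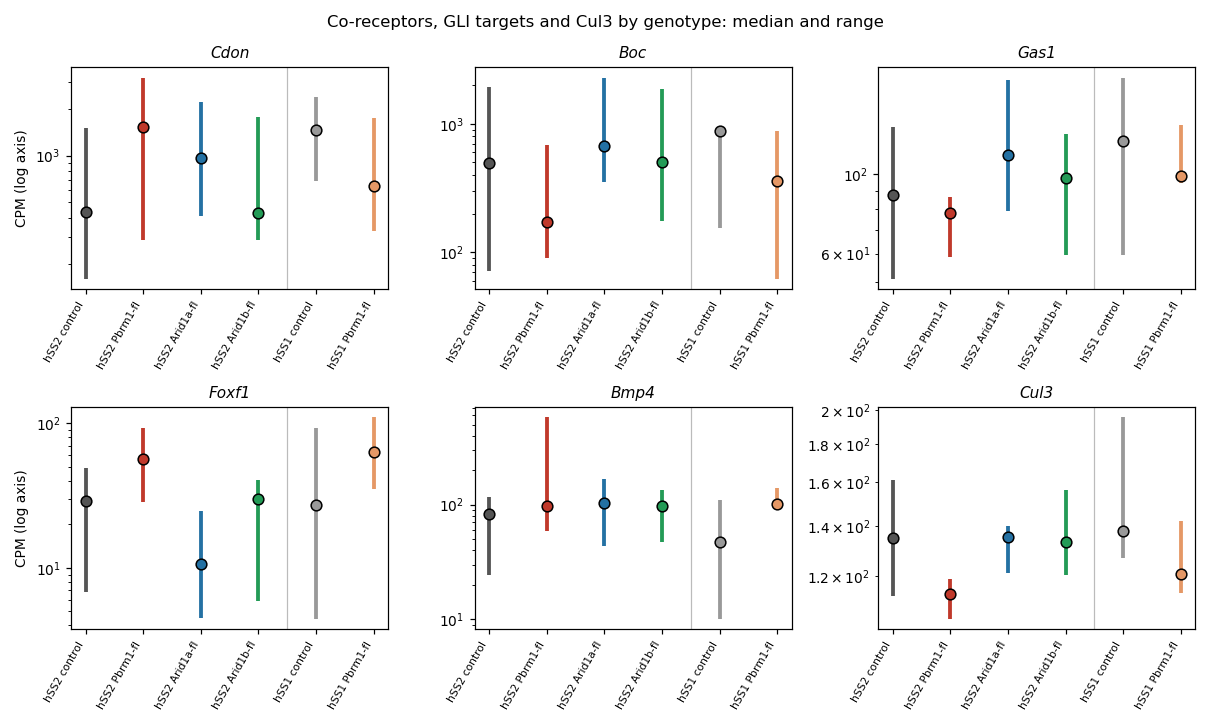
Median (point) and range over tumours (line) of 3 co-receptors, the GLI targets Foxf1 and Bmp4, and Cul3, in CPM on a log axis by group. The Foxf1 ranges of hSS2 Pbrm1-fl, from 28.5 to 92.2 CPM, and Arid1a-fl, from 4.51 to 24.8 CPM, do not overlap. Those of Cul3 in the same groups do not overlap either, although Cul3 was not called between them. The share of all genes that separated in this way was not counted. The ranges of Cdon, Boc and Bmp4 overlap in hSS2.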

How the data were processed

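Total RNA from fresh frozen tumours was depleted of ribosomal RNA and made into stranded libraries. Per the labels, the deposited values were raw read counts per Ensembl gene, in 1 table for hSS2 and 1 for hSS1. The submitters' processing notes name STAR 2.7.11, featureCounts 1.6.3 and mm10. Annotation release, strand setting and the rule for multi-mapping reads are not given in the sources used here, and reads shared with overlapping genes or paralogs can be misassigned.

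Counts were filtered by filterByExpr, scaled by TMM and tested with the edgeR 4.0.16 quasi-likelihood test in R 4.3.3, with DESeq2 1.42.0 as an alternative, both on the same 20083 (hSS2), 17786 (hSS1) or 21725 (both) genes. The 37 hSS2 libraries shared 1 fit, the 9 hSS1 libraries another, and the difference between backgrounds used all 46. Correlations used log2 CPM (prior count 2), centred on group means, with permutation within groups. Symbols, lengths and positions came from GENCODE M21 (GRCm38), which named 91.4% of hSS2 and 91.2% of hSS1 identifiers. The edgeR script was tested on simulated data.

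The 9 members, the pathway and marker lists and the tests were chosen with earlier results of these data known. All 9 members were named in every comparison, as were up to 6 other pathway genes per comparison by smallest adjusted p. Prkar1a, the seventh called in Pbrm1-fl against control, was named after its values were seen. The 5 genes with the highest rho and a mean of at least 1 CPM were named as most alike. Each library was a separate tumour from its own mouse, and no 2 libraries of a group agreed to within counting noise. Library totals were 10137668 to 21294657 counts, and intervals for Ihh and Dhh were wide. The alternatives were DESeq2 size factors, no filter, DESeq2, controls of the same mouse number range, a skeletal muscle score as covariate, and leaving out each tumour. Of the pathway genes counted as called, 1 is not reported here by name. Protein sequences and the promoters of Shh and Gli1 were not used here.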

Additional observations from a re-analysis of the deposited data

Results flagged for a closer look

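Of 105 groups of a gene tested, 11 held 1 tumour whose gap to the nearest other, as a share of the group's range, passed Dixon's 95% limit. For independent, normally distributed values chance gives about 1 in 20 groups. The gaps were taken on CPM without a log scale and the genes share tumours, so that rate does not apply directly here. Among the members, Ptch1 was at 1612 CPM in hSS1 control replicate 4 (next highest 489.7) and at 1692 CPM in hSS1 Pbrm1-fl replicate 3 (next 598). The second of these tumours was also apart for Gli2, at 296 CPM (next 184). Smo was at 272 CPM in hSS2 Arid1b-fl replicate 8 (next 189) and at 385 CPM in hSS1 control replicate 5 (next 257). Gli1 was lowest, at 94.9 CPM, in hSS2 Arid1a-fl replicate 8 (next lowest 156), the tumour that also had the lowest Shh and Ptch1 of all hSS2 tumours.

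Among the other pathway genes, Boc was at 2286 CPM in hSS2 Arid1a-fl replicate 4 (next 989.99) and Bmp4 at 577 CPM in hSS2 Pbrm1-fl replicate 3 (next 199.95). Prkar1a was at 364 CPM in hSS2 Arid1b-fl replicate 6 (next 278), Gas1 at 138 CPM in hSS1 Pbrm1-fl replicate 1 (next 101) and Grk2 at 124 CPM in hSS1 control replicate 4 (next 88.7).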

How the results depend on the processing

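No paired analysis was possible because the labels give each tumour its own mouse number and no number is shared between groups. Results that did not pass the threshold but changed sign are listed here as log2 fold changes. With controls of the same mouse number range, Pbrm1-fl against control gave −0.22 for Shh, −0.76 for Ihh, −0.082 for Dhh, 0.051 for Smo and 0.24 for Hhip. Arid1a-fl against control gave 0.43 for Ihh, 0.57 for Dhh and 0.043 for Gli1, and Arid1b-fl against control gave −0.051 for Shh, 0.46 for Ihh and −0.16 for Gli1. Pbrm1-fl against Arid1a-fl gave −1.19 for Ihh, −0.65 for Dhh, 0.63 for Hhip and −0.057 for Evc2, with 0 members called. In hSS1 Shh gave −0.30, and the difference between backgrounds gave 0.48 for Ihh. With the muscle score as covariate, Pbrm1-fl against control gave −0.12 for Shh and −0.013 for Gli2, Arid1a-fl 0.087 for Dhh, Arid1b-fl 0.088 for Ihh, and hSS1 0.18 for Gli2 and −0.055 for Gli3. Without the filter, Hhip in Arid1a-fl against control was 0.00015. The cause was not tested.

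Leaving out 1 tumour at a time moved the number of members called across the 4 hSS2 groups from 0 to 1. In Pbrm1-fl against control the range was −0.13 to 0.15 for Shh, −0.096 to 0.83 for Ihh, −0.11 to 0.014 for Smo, −0.038 to 0.19 for Gli1 and −0.0035 to 0.12 for Gli2. In Arid1a-fl it was −0.50 to 0.083 for Dhh, −0.097 to 0.033 for Gli1 and −0.087 to 0.11 for Hhip, and in Arid1b-fl −0.053 to 0.20 for Shh, −0.16 to 0.62 for Ihh and −0.0049 to 0.17 for Gli2. Gli3 ran from −0.090 to 0.14 in Pbrm1-fl against Arid1a-fl. In hSS1 the range was −0.19 to 0.79 for Shh, −0.21 to 1.13 for Ptch1, −0.26 to 0.12 for Gli2 and −0.052 to 0.063 for Gli3, and for the difference between backgrounds −0.23 to 0.76 for Shh, −1.04 to 0.32 for Ptch1 and −0.32 to 0.076 for Gli2.

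Of the 8 planned correlations with Gli1, adjusted over those 8, that with Dhh passed at −0.40 on uncentred values. Those with Shh (0.867, 0.691 and 0.724) and Ptch1 (0.784, 0.481 and 0.594) did not pass within the 3 mouse number ranges, nor did Ptch1 without the 2 farthest tumours (0.414). Gli2 was at −0.166 in mice under 1000, and Gli3 at −0.118 there and −0.662 from 1000 to under 2000.

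Counts of all genes called moved by over 1.5 times in several settings. DESeq2 called 3731 across the 4 hSS2 groups, 1696 in Arid1a-fl, 1184 in hSS1 and 1195 for the difference between backgrounds. With controls of the same range the counts were 477 in Pbrm1-fl, 1405 in Arid1a-fl, 0 in Arid1b-fl, 436 in Pbrm1-fl against Arid1a-fl, 0 in hSS1 and 164 for the difference. Without the filter they were 243 in Arid1a-fl, 27 in Arid1b-fl and 402 for the difference, and with the muscle covariate 6 in Arid1b-fl. Leaving out 1 tumour gave 56 to 1416 calls in Arid1a-fl, the lowest without Arid1a-fl replicate 8 and the highest without replicate 6, 0 to 4 in hSS1 and 235 to 847 for the difference, the lowest without hSS1 control replicate 3. Ihh and Dhh rest on few counts, which limits their precision.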
